A study of Arabidopsis thaliana with 6 samples.

Results

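AT2G47710 and AT3G03270 are 2 Arabidopsis thaliana genes of the universal stress protein family. Each is read by 1 probe set for which the array platform's annotation lists that gene alone, so the rule of taking the brightest one left nothing to choose. The table as a whole measured 13286 genes by single-gene probe sets. Of 24 other universal stress protein genes on a list drawn up for comparison, 22 were among them. Below, a gene is called measured only if the annotation gives it such a probe set, and other genes were not analysed. AT2G47710 was picked out with its low value in SUB1C seedlings already known, and its partner with the results of the same arrays known, so both were chosen by their measured values in these 3 groups and are described without a p-value.

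Universal stress proteins are small proteins first described in bacteria, where they accumulate when growth is halted by stress, and many members of the family bind ATP or AMP. Plants carry many copies, which differ in when and where they are expressed. AT3G03270 is known as HRU1 (HYPOXIA RESPONSIVE UNIVERSAL STRESS PROTEIN 1), a gene induced by low oxygen under group VII ethylene response factors (ERFs), whose protein interacts with the small GTPase ROP2 and the NADPH oxidase RBOHD. SUB1A and SUB1C are rice ERFs of the same group, from the locus known for submergence tolerance.

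The arrays (Affymetrix ATH1) compared 3 groups of Col-0 seedlings with 2 biological replicates each. The first expressed FLAG-tagged SUB1A, the second expressed FLAG-tagged SUB1C, both from the constitutive 35S promoter, and the third was wild type (WT). All were whole seedlings harvested at 7 days at midday, after 3 days of stratification and growth at 23 °C under days of 16 h light. None had a further treatment, so the hypoxia-linked gene was measured in air. The labels list no empty-vector line, and they do not say how many transgenic lines were sampled, so an effect of a transgene and a difference between particular lines cannot be told apart. Values are log2 expression. A difference subtracts 1 group mean from another and is followed by ± its standard error (SE) from a limma fit to all 6 arrays. This SE pools the spread of the 3 groups and is moderated towards that of other probe sets. It is thus the same for a gene in every comparison and does not show the spread within 1 group. There were n = 2 arrays a group, and this small number limits the precision of every value.

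No array stood apart. Across probe sets, arrays of 1 group correlated at 0.998 to 0.999 and arrays of different groups at 0.989 to 0.996. Of the marker genes listed, 3 of 8 for root and 2 of 7 for shoot were measured. PYK10, a root beta-glucosidase, lay between 14.05 and 14.20, and LHCB4.1, a light-harvesting protein, between 14.65 and 14.71. The sum of the linear root marker values was 18636 to 19327 in SUB1A, 18509 to 19290 in SUB1C and 17370 to 17685 in WT. PYK10, by far the brightest root marker, makes up most of this sum. It did not pass against WT in either line, at 0.11 ± 0.06 in SUB1A and 0.09 ± 0.06 in SUB1C. Of the 3 root markers, the root hair expansins EXPA7 and EXPA18 passed as higher in both lines, by 0.29 ± 0.08 each in SUB1A and by 0.78 ± 0.08 and 0.75 ± 0.08 in SUB1C. Of the 2 shoot markers, LHCB4.2 passed as lower in SUB1A, at -0.35 ± 0.07. Among all probe sets, 9.47% passed as higher and 10.8% as lower in SUB1A, and 2.84% as higher in SUB1C. The sum for the shoot markers was 40472 to 42113 in SUB1A, 44249 to 44499 in SUB1C and 45188 to 47272 in WT. FMA, a guard cell regulator and the 1 measured gene of 6 listed for seed, pollen and guard cells, was lower in SUB1A by a log2 difference of -0.61 ± 0.07 (limma adjusted p = 0.000781), with sums of 150 to 160 in SUB1A, 195 to 204 in SUB1C and 226 to 249 in WT. In whole seedlings fewer cells of a type and less RNA per cell cannot be told apart, and the part of these shifts in the values below was not tested.

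AT2G47710 was low in SUB1C seedlings and at a similar, higher level in the other groups. Its log2 expression was 11.34 and 11.48 on the SUB1A arrays, 7.38 and 6.94 on the SUB1C arrays, and 11.26 and 11.17 on the WT arrays. The SUB1C arrays lay far below all the others (26.7% of all 22746 tested probe sets had both SUB1C arrays below both WT arrays, and 30.7% had both SUB1A arrays above both SUB1C arrays), and the order of the means was SUB1C, then WT, then SUB1A. The SUB1C minus WT difference was -4.06 ± 0.13, so that SUB1C seedlings held 6.01% of the WT signal on the linear scale, and the 4 differences between single SUB1C and WT arrays ran from -4.32 to -3.79. Against SUB1C, the SUB1A mean was higher by 4.25 ± 0.13 (19.0-fold), with single-array differences of 3.95 to 4.54.

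The SUB1A and WT levels of AT2G47710 were close to each other. The SUB1A minus WT difference was 0.19 ± 0.13, a 1.14-fold difference, and both SUB1A arrays lay above both WT arrays by 0.08 to 0.30. A separation of the 4 arrays in that direction was seen for 30.6% of all 22746 tested probe sets, and 29.0% of probe sets had a larger absolute SUB1A minus WT difference. The SUB1C replicates differed from each other by 0.45, more than the SUB1A replicates (0.14) or the WT replicates (0.08), and only 0.251% of probe sets had SUB1C replicates farther apart. The SUB1C values lay above 5, the level under which probe sets were read as dim, and the table holds no detection calls.

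**Figure D1:**
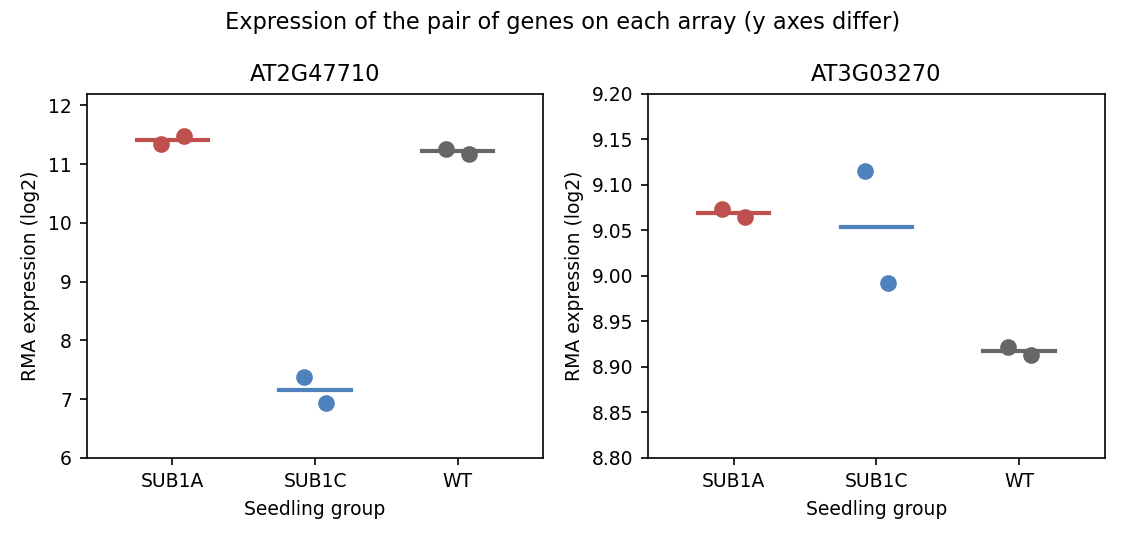
Log2 expression (y axes, scaled separately) of AT2G47710 on the left and AT3G03270 on the right in SUB1A, SUB1C and WT seedlings, with 1 point for each array and a line at the group mean (n = 2). AT2G47710 lies at 7.38 and 6.94 in SUB1C and above 11 in the other groups, while all 6 values of AT3G03270 lie between 8.91 and 9.11.

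In the SUB1C comparison, the difference of AT2G47710 was the most negative of the 22746. The next lowest value was -3.05 ± 0.08, from a probe set with no listed gene. Thus 0 others lay within 1 log2 unit of AT2G47710, but this probe set missed that limit only narrowly. Among single-gene probe sets the next were BGLU28, a beta-glucosidase gene, at -1.10 ± 0.19, and petG, a plastid gene of the cytochrome b6f complex, at -1.02 ± 0.18. AT2G47710 also gave the largest positive SUB1A minus SUB1C difference, ahead of the late embryogenesis abundant gene M17 at 3.70 ± 0.11. After M17 came a probe set with no listed gene, at 3.06 ± 0.08. These ranks describe the values that led to the choice of AT2G47710.

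**Figure D2:**
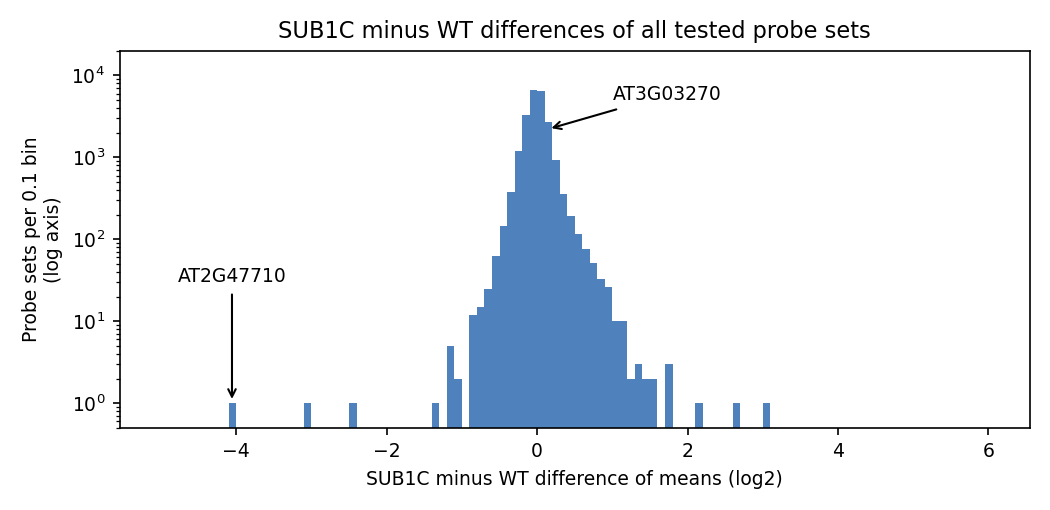
Number of probe sets (y axis, log scale) in bins of 0.1 of the SUB1C minus WT log2 difference (x axis), for all 22746 tested probe sets. AT2G47710 is the lowest, at -4.06, with the next probe set at -3.05, and AT3G03270, at 0.14, lies in the central peak.

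AT3G03270 (HRU1) was nearly level across the groups. Its log2 expression was 9.07 and 9.06 on the SUB1A arrays, 9.11 and 8.99 on the SUB1C arrays, and 8.92 and 8.91 on the WT arrays. All 4 transgenic arrays lay above both WT arrays, and the arrays of the transgenic lines overlapped each other. The difference from WT was 0.15 ± 0.07 in SUB1A (1.11-fold) and 0.14 ± 0.07 in SUB1C (1.10-fold), in comparisons that share the WT arrays. SUB1A exceeded SUB1C by 0.02 ± 0.07, with 2 of 4 single-array differences positive.

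The order of the AT3G03270 means was thus WT, SUB1C, SUB1A, with the upper 2 not separated beyond their spread. Separation above WT was common, at 30.6% of probe sets in SUB1A and 24.5% in SUB1C. A larger absolute difference from WT was found for 37.4% of probe sets in SUB1A and 29.9% in SUB1C. The WT replicates differed by 0.01 and the SUB1A replicates by 0.01, a closeness that 94.0% of probe sets did not reach in either group.

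The rest of the family was examined to see whether other universal stress protein genes shared the SUB1C pattern of AT2G47710. In SUB1C, 1 of 22 measured genes passed limma's threshold of adjusted p 0.05 over all probe sets. This was AT3G25930, which was higher, not lower, against a background of 4.71% of all probe sets called (2.84% higher and 1.87% lower), so the share of 4.55% was near the background. The 22 differences from WT ran from -0.27 to 0.41 with a median of 0.05, against -0.0042 over all probe sets. The lowest of them was AT1G44760 at -0.27 ± 0.07, with adjusted p = 0.0591, whereas AT2G47710 was at -4.06.

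In SUB1A, 5 of 22 family genes passed, 1 higher and 4 lower, a share of 22.7% beside 20.2% of all probe sets (9.47% higher and 10.8% lower). Their median difference was -0.04, against 0.0087 over all probe sets. AT3G58450 had values of 5.98 and 6.01 in SUB1A, 5.12 and 4.99 in SUB1C, and 5.03 and 5.09 in WT. It rose in SUB1A by 0.94 ± 0.07 over WT (1.92-fold, limma adjusted p = 8.3e-05), and the SUB1C arrays overlapped those of WT. Its SUB1C and WT levels lay close to 5, where changes can be compressed.

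AT3G25930 moved in opposite directions in the transgenic lines. Its values were 8.72 and 8.53 in SUB1A, 9.40 and 9.33 in SUB1C, and 9.05 and 8.87 in WT. No group overlapped another. It fell in SUB1A by 0.33 ± 0.09 (adjusted p = 0.0304) and rose in SUB1C by 0.41 ± 0.09 (adjusted p = 0.0413), and the direct SUB1A minus SUB1C difference was -0.74 ± 0.09 (limma adjusted p = 0.00146).

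The other falls in SUB1A were those of AT1G69080, RD2 and AT1G44760. AT1G69080 was at 6.85 and 7.03 in SUB1A, 7.53 and 7.39 in SUB1C, and 7.51 and 7.22 in WT, a difference from WT of -0.43 ± 0.11 in SUB1A (adjusted p = 0.0249). RD2, named for its response to desiccation, was at 11.17 and 11.05 in SUB1A, 11.39 and 11.36 in SUB1C, and 11.47 and 11.37 in WT, and fell by 0.31 ± 0.07 in SUB1A (adjusted p = 0.0151). AT1G44760 was at 7.58 and 7.45 in SUB1A, 7.58 and 7.60 in SUB1C, and 7.88 and 7.85 in WT. Its SUB1A minus WT difference was -0.34 ± 0.07 (limma adjusted p = 0.00813). It was the 1 of these 3 genes whose SUB1C arrays also lay below both WT arrays, as they did for 26.7% of all probe sets.

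Between the transgenic lines, 5 of 22 family genes differed, 1 higher and 4 lower in SUB1A than in SUB1C, a share of 22.7% beside 12.1% of all probe sets (5.57% higher and 6.48% lower). AT3G58450 was higher in SUB1A by 0.94 ± 0.07 (adjusted p = 0.000124). The lower ones beside AT3G25930 were AT1G69080 at -0.52 ± 0.11 (adjusted p = 0.0169), RD2 at -0.26 ± 0.07 (adjusted p = 0.0421) and AT3G01520, whose protein structure is known with bound AMP, at -0.23 ± 0.06 (adjusted p = 0.0450). The median was -0.02, against 0.0087 over all probe sets.

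Several of these differences lay close to the threshold. With 1 array omitted a group has a single array, which is assumed to vary like the other groups, and fewer degrees of freedom remain. All these differences then kept their sign, and their size stayed within 1.5 times the value on all arrays except for AT1G69080 in SUB1A minus WT, which was -0.28 without WT replicate 1. Calls in SUB1A minus WT were lost for AT1G69080, RD2 and AT3G25930 without WT replicate 1, where 2 family genes passed, and for AT1G44760, RD2 and AT3G25930 without SUB1A replicate 2, where 3 passed. That of AT1G69080 was also lost without SUB1A replicate 1, and that of AT3G25930 without either SUB1C array. The SUB1C minus WT call of AT3G25930 was lost without any 1 of the WT or SUB1C arrays, with differences of 0.32 to 0.49. Between the transgenic lines, RD2 (-0.32 to -0.21) and AT3G01520 (-0.26 to -0.21) were lost without any 1 of the SUB1A or SUB1C arrays, and AT1G69080 (-0.61 to -0.43) without SUB1A replicate 1 or either SUB1C array, leaving as few as 2 of 5. Both AT3G58450 calls and the direct difference of AT3G25930 passed in all 17 alternatives tried, some of which were the same fit.

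The remaining family genes did not pass in any of the 3 comparisons. AT1G09740 had the largest positive differences of these from WT, at 0.25 ± 0.09 in SUB1A and 0.27 ± 0.09 in SUB1C. AT3G62550 was at -0.18 ± 0.08 in SUB1A and -0.24 ± 0.08 in SUB1C, and AT3G11930 at -0.07 ± 0.06 in SUB1A and -0.21 ± 0.06 in SUB1C. AT3G53990, known as a protein and RNA chaperone in heat and cold tolerance, was at -0.14 ± 0.09 in SUB1A and 0.07 ± 0.09 in SUB1C. PHOS32 and PHOS34, phosphoproteins known from responses to microbial elicitors, did not pass either, with PHOS32 at 0.13 ± 0.07 in SUB1A and 0.10 ± 0.07 in SUB1C. PHOS34 was at 0.01 ± 0.07 in SUB1A and 0.15 ± 0.07 in SUB1C.

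AT3G17020 was at -0.03 ± 0.07 in each line, and AT1G11360, AT1G48960, AT1G68300, AT3G21210, AT4G13450, AT5G14680 and AT5G47740 lay between -0.09 and 0.17 in both lines. AT3G03290 and AT5G49050 had means under 5 over all arrays, so their levels say little. AT2G03720 and AT5G17390 were not analysed here.

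**Figure D3:**
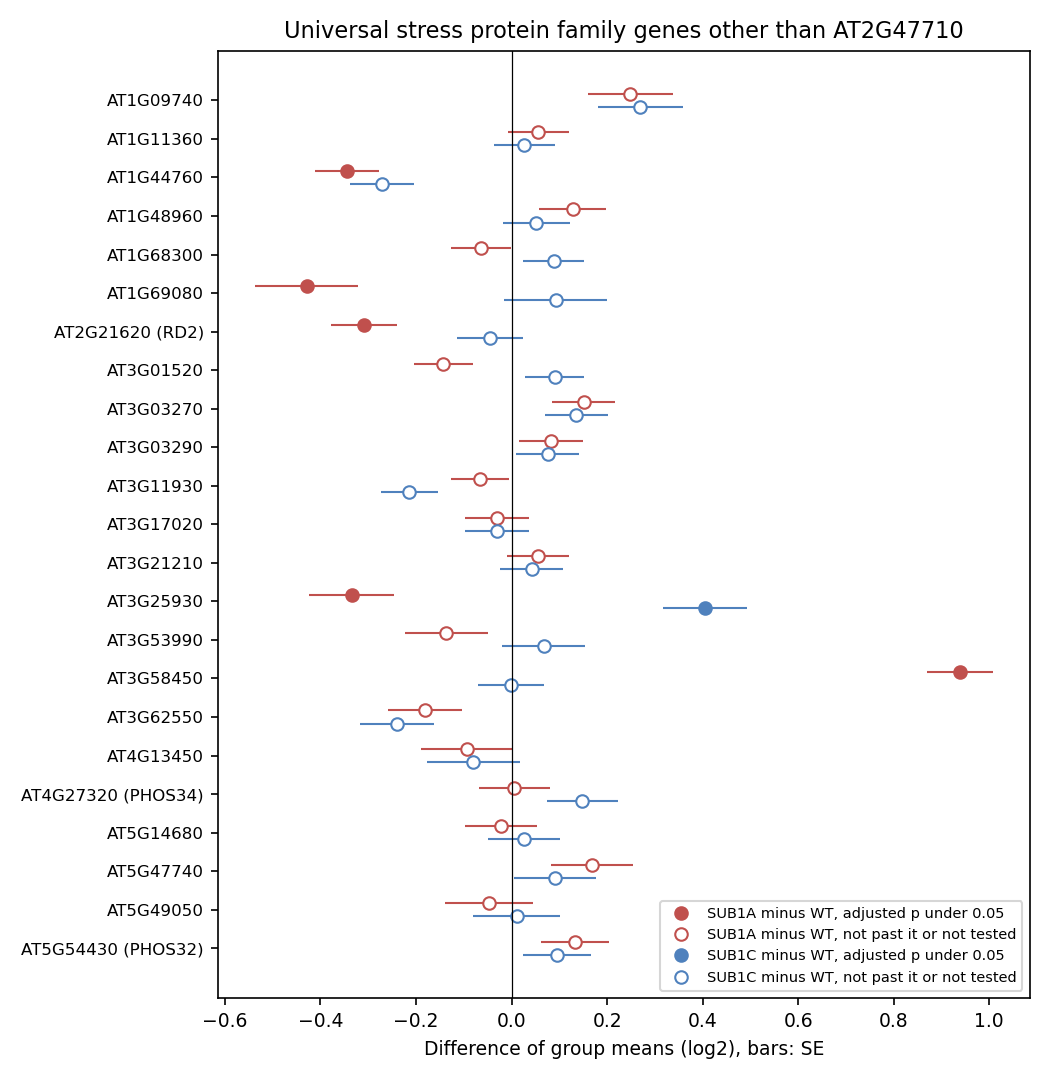
Differences from WT on the log2 scale (x axis, bars are SE, n = 2 arrays a group) of AT3G03270 and the 22 other measured universal stress protein genes (y axis), for SUB1A in red and SUB1C in blue. Filled points passed limma's adjusted p of 0.05, and open points did not, or belong to AT3G03270, which was not tested. All points lie between -0.43 and 0.94, so AT2G47710 in SUB1C, at -4.06, would fall far to the left.

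The genes next to each member on its chromosome were examined to see whether the low SUB1C value of AT2G47710 was shared along the chromosome. Of the 10 annotated genes on either side, 8 in all were measured. In SUB1C, 2 of 8 passed and both were lower, beside 4.71% of all probe sets called (2.84% higher and 1.87% lower). These were AT2G47690 and AT2G47680, the genes at places -2 and -3 before AT2G47710. The 8 differences had a median of -0.16, against -0.0042 over all probe sets, and 7 of 8 were negative.

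AT2G47690 encodes a small subunit of mitochondrial complex I. It was at 8.69 and 8.65 in SUB1A, 8.27 and 8.28 in SUB1C, and 8.60 and 8.59 in WT, so that both SUB1C arrays lay below the other 4. It fell in SUB1C by 0.32 ± 0.06 relative to WT (limma adjusted p = 0.0222) and was higher in SUB1A than in SUB1C by 0.40 ± 0.06 (adjusted p = 0.00397). AT2G47680, a helicase family gene, was at 6.63 and 6.60 in SUB1A, 6.37 and 6.36 in SUB1C, and 6.59 and 6.76 in WT. Its SUB1C minus WT difference was -0.31 ± 0.07 (limma adjusted p = 0.0479), and the SUB1A minus SUB1C difference was 0.25 ± 0.07 (adjusted p = 0.0603).

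With 1 array omitted, and a single array left in that group, 0 or 1 of the SUB1C minus WT calls of these neighbours passed. Their differences kept their sign, at -0.33 to -0.31 for AT2G47690 and -0.40 to -0.23 for AT2G47680. The direct difference of AT2G47690 passed in all 17 alternatives. On the other side, GH3.9, of the auxin-conjugating family and the fourth gene after AT2G47710, had values of 5.59 and 5.73 in SUB1C and 5.90 and 6.08 in WT. Its difference was -0.33 ± 0.09, which did not pass (adjusted p = 0.0769). AT2G47720, the second gene after it, was dim, at -0.17 ± 0.08. The directly adjoining genes, RFI2 before and GSTF8 after, were not analysed here.

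In SUB1A, 1 of 8 neighbours of AT2G47710 passed, beside 20.2% of all probe sets. It was AT2G47780, the ninth gene after AT2G47710, at 0.38 ± 0.10 (adjusted p = 0.0283), and its call was lost without WT replicate 2 or SUB1A replicate 2. Between the transgenic lines 1 of 8 passed, AT2G47690, a share of 12.5% beside 12.1% of all probe sets.

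Around AT3G03270, 9 of 20 neighbours were measured and limma called 0 of them in any of the 3 comparisons, beside 20.2% of all probe sets in SUB1A minus WT, 4.71% in SUB1C minus WT and 12.1% in SUB1A minus SUB1C. An unadjusted p under 0.05 was reached by 2 of 9 in SUB1A minus WT (32.7% of all probe sets), 0 of 9 in SUB1C minus WT (20.6%) and 3 of 9 in SUB1A minus SUB1C (26.4%). Within 5 genes of it were AT3G03230, AT3G03240, AT3G03290 and AT3G03305, with differences from WT of -0.06 to 0.19 in SUB1A and -0.09 to 0.12 in SUB1C. AT3G03290, the third gene after AT3G03270, belongs to the same protein family.

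**Figure D4:**
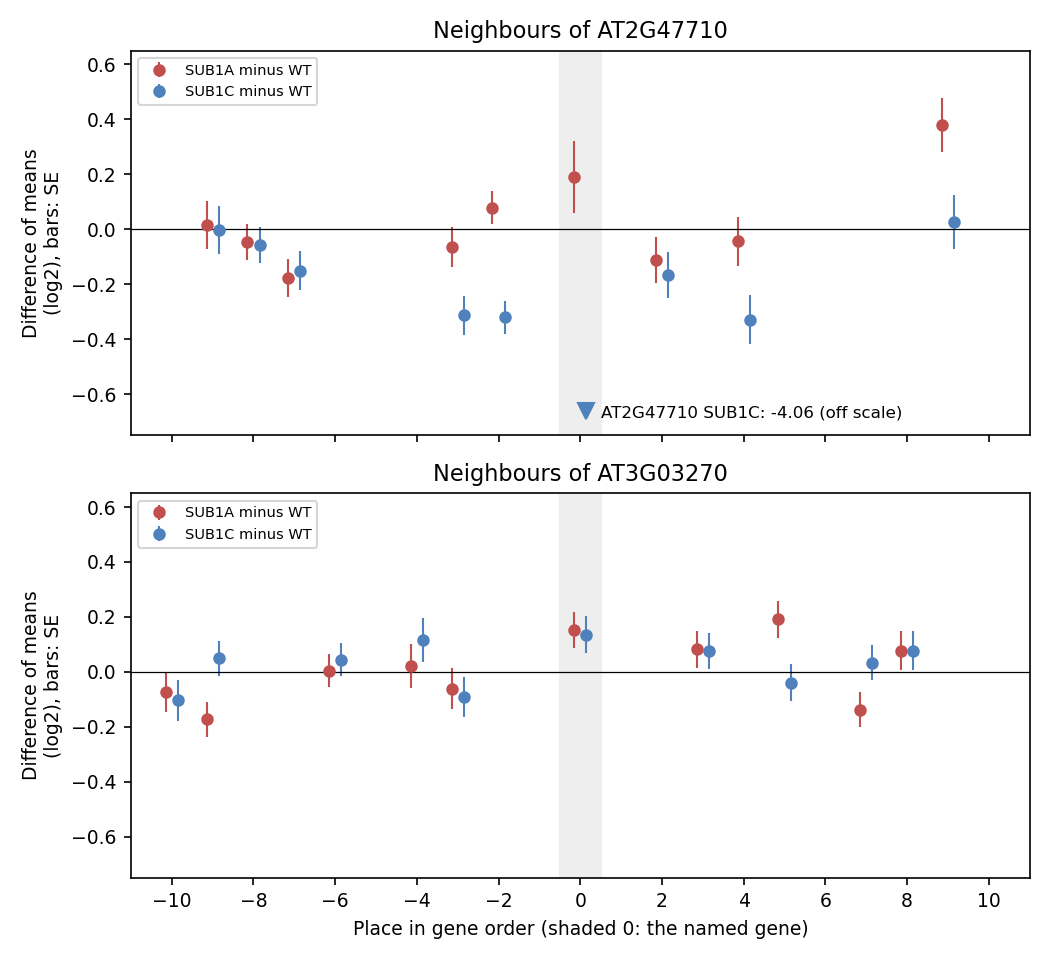
Differences from WT on the log2 scale (y axis, bars are SE, n = 2 arrays a group) of measured genes by their place in the gene order (x axis) around AT2G47710 in the upper panel and AT3G03270 in the lower one, for SUB1A in red and SUB1C in blue. The SUB1C value of AT2G47710, -4.06, is off the scale and marked by a triangle. The genes at -2, -3 and 4 in the upper panel have SUB1C differences of -0.32, -0.31 and -0.33, while no neighbour in the lower panel exceeds 0.19 in size.

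Genes that respond to low oxygen were set beside HRU1. Of 32 listed core hypoxia genes 13 had a single-gene probe set in the annotation. The others were not analysed, so the counts cover only part of the list. In SUB1A, 3 of 13 passed, 1 higher and 2 lower, a share of 23.1% beside 20.2% of all probe sets, with a median difference of -0.01, against 0.0087 over all probe sets. In SUB1C, limma called 0 of 13, beside 4.71% of all probe sets, and 2 of 13 had an unadjusted p under 0.05, beside 20.6% of all probe sets. The median was 0.08 against -0.0042 over all probe sets. Between the transgenic lines 1 of 13 passed, lower in SUB1A, a share of 7.69% beside 12.1% of all probe sets (6.48% lower). The median was -0.10, against 0.0087 over all probe sets.

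AT2G17850, of the rhodanese (sulfurtransferase) family, was at 5.35 and 5.42 in SUB1A, 5.20 and 5.18 in SUB1C, and 4.97 and 4.99 in WT. It rose in SUB1A by 0.40 ± 0.06 (limma adjusted p = 0.00248) from a WT level at the dim limit, and its SUB1C minus WT difference of 0.21 ± 0.06 did not pass (adjusted p = 0.0952). Like HRU1, it had all transgenic arrays above both WT arrays, as did AT1G33055 and other genes on the list. Both SUB1A arrays lay above both WT arrays for 30.6% of all probe sets, and both SUB1C arrays for 24.5%. The share with both patterns at once was not counted.

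AT5G66985 was at 8.04 and 7.93 in SUB1A, 8.60 and 8.45 in SUB1C, and 8.64 and 8.36 in WT. It fell in SUB1A by 0.51 ± 0.10 relative to WT (limma adjusted p = 0.00853) and was lower than in SUB1C by 0.54 ± 0.10 (adjusted p = 0.0103). The lactate dehydrogenase gene AT4G17260 fell in SUB1A by 0.33 ± 0.10 (adjusted p = 0.0462), a call lost in 9 of 17 alternatives. Omitting WT replicate 1 brought its difference to -0.17, and omitting WT replicate 2 to -0.49. Without SUB1A replicate 2, 1 of the 3 calls against WT was left, that of AT2G17850, and AT5G66985 was at -0.46 (adjusted p = 0.0528). The direct call of AT5G66985 was lost without SUB1A replicate 2 or SUB1C replicate 1 (adjusted p up to 0.0892).

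The largest SUB1C differences from WT on the list were AT1G33055 at 0.23 ± 0.09 and AT2G17850. In the direct comparison AT4G39675 followed AT5G66985, at -0.34 ± 0.11 (adjusted p = 0.0797). Of 8 listed genes for interaction partners and ERF regulators of HRU1, 0 had a single-gene probe set, and they were not analysed here.

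The genes with the most similar profiles were listed by Pearson's r over the 6 arrays, among the brightest single-gene probe sets whose group means spanned at least 0.5. The arrays fall into 3 groups, so r mostly reflects 3 group means. For AT2G47710, out of 903 genes, these were AT5G62360 (r = 0.97), petG (0.93), the CENTRORADIALIS homologue ATC (0.93), AT1G07050 (0.92) and AT3G05400 (0.92). Their SUB1C minus WT differences ran from -1.02 to -0.54, against -4.06 for AT2G47710. By Euclidean distance of values centred on the WT mean, the nearest of these genes were petG, BGLU28, AT3G05400, AT5G22320 and 3xHMG-box1. Their distances were 4.33 to 4.78 log2 units, so no candidate matched it in size. Probe sets with no listed gene were not candidates, among them the one with a SUB1C minus WT difference of -3.05 ± 0.08.

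For AT3G03270, out of 904 genes, the most similar by r were AT1G13130 (0.97), the class III peroxidase gene AT5G66390 (0.94), AT1G30750 (0.93), AT1G70990 (0.93) and AT3G09490 (0.93). Their differences from WT were 0.42 to 0.66 in SUB1A and 0.39 to 0.71 in SUB1C. They are larger than those of AT3G03270 by construction, because every candidate had to span 0.5 and AT3G03270 itself spans 0.15. For the same reason no genes nearest to it by distance are given.

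**Figure D5:**
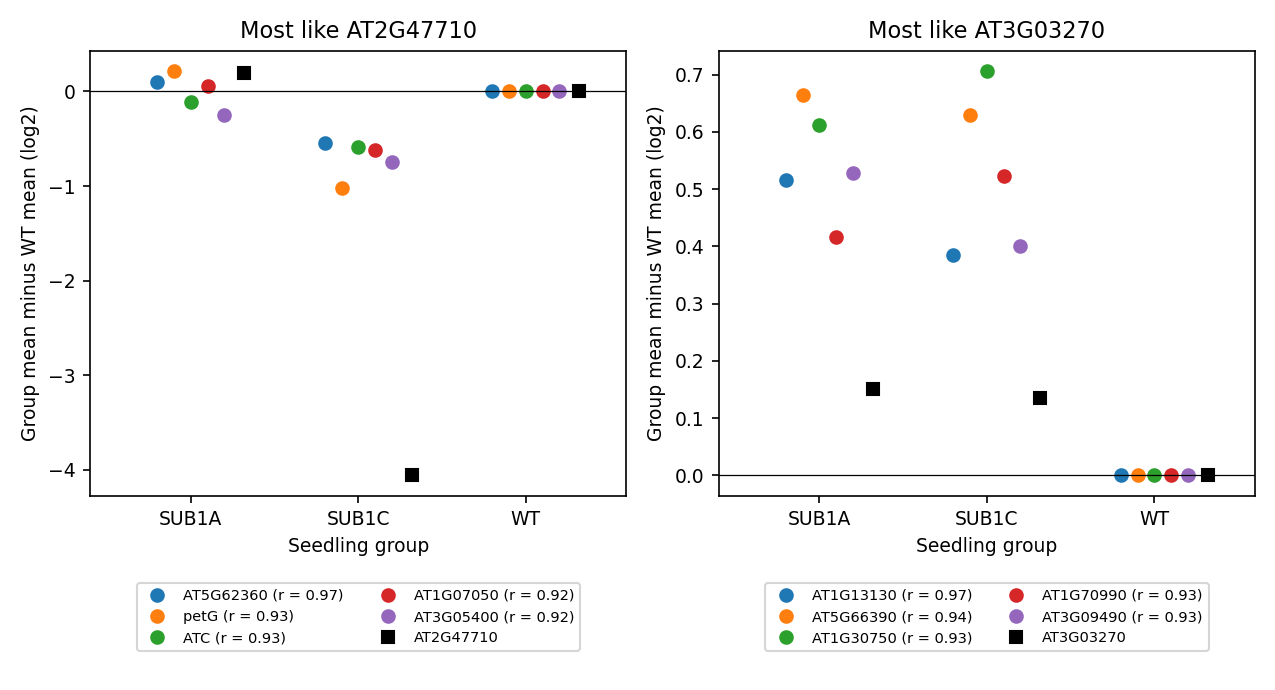
Group means minus the WT mean on the log2 scale (y axes, scaled separately) in SUB1A, SUB1C and WT (x axes) for the 5 genes with the highest Pearson's r over 6 arrays (circles) and for AT2G47710 or AT3G03270 itself (black squares). In the left panel the circles in SUB1C lie between -1.02 and -0.54, far above the square at -4.06, and in the right panel the squares lie at 0.15 and 0.14, below circles that had to span at least 0.5 to be considered.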

How the data were processed

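Total RNA of whole seedlings (100 ng labelled per array, per the labels' protocols) was hybridised to 6 ATH1 arrays, 2 a group, grouped by sample title. Per the submitters' processing notes, the authors summarised each probe set with RMA (version not given in the sources used here), and the deposited values are on a log2 scale. Quantile normalization in RMA equalises the arrays, so a global shift in RNA cannot be seen. Of 22810 probe sets, 64 controls were left out and 22746 tested. A single gene was listed for 13513, several for 503 and none for 8730, and 13436 were matched to RefSeq (TAIR10.1) by Entrez ID, which also gave the gene order.

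The 3 groups were fitted together in limma 3.58.1 under R 4.3.3 with eBayes moderation (3 residual degrees of freedom, 5.37 prior). Tests were two-sided, and p-values were adjusted by Benjamini-Hochberg over the 22746 probe sets, with 0.05 as threshold. The fit was tested on simulated data. Members, lists and named-gene rules were chosen with earlier results of these data known. Named were the members, all measured family genes, neighbours within 5 genes, hypoxia genes that passed or were among the 2 largest changes, and the 5 most similar genes, while counts of neighbours used 10 genes a side. AT2G47780 lay outside this rule and was named after its values were seen. Deviations of arrays with the same replicate number correlated at 0.02, -0.01 and 0.04, so the numbers were not treated as pairs. Alternatives are given in the closing section.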

Additional observations from a re-analysis of the deposited data

Results flagged for a closer look

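Among 37 genes screened (both members, 22 family genes and 13 hypoxia genes), 3 had both SUB1A arrays on one side of both WT arrays and both SUB1C arrays on the other, as did 5.39% of all probe sets. AT2G47710 lay above WT in SUB1A and below it in SUB1C. Its SUB1A minus SUB1C difference of 4.25 was not tested because the gene was chosen for it. For the same reason the 3 of 37 cannot be read against the 5.39%. AT3G25930 lay below WT in SUB1A and above it in SUB1C, with a direct difference of -0.74 (limma adjusted p = 0.00146). AT3G01520 did the same, with values of 10.48 and 10.43 in SUB1A, 10.69 and 10.69 in SUB1C, and 10.63 and 10.57 in WT. Its direct difference was -0.23 (limma adjusted p = 0.0450), a call lost in 8 of 17 alternatives.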

How the results depend on the processing

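The difference of AT2G47710 stayed between -4.06 and -4.04 for SUB1C minus WT, 4.24 and 4.26 for SUB1A minus SUB1C, and 0.19 and 0.21 for SUB1A minus WT over 10 alternatives on all arrays. Omitting 1 array gave -4.28 to -3.83, 4.02 to 4.47 and 0.12 to 0.26. Of the 10 alternatives on all arrays, only renewed quantile normalization and median centring changed the differences of AT2G47710. The others left its group means as they were, so their equal values say nothing about stability. For AT3G03270 omission gave 0.15 to 0.16 for SUB1A minus WT, 0.0745 to 0.197 for SUB1C minus WT and -0.0459 to 0.0768 for SUB1A minus SUB1C, a difference near 0 with no settled sign.

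Probe sets called numbered 4606 for SUB1A minus WT, 1071 for SUB1C minus WT and 2742 for SUB1A minus SUB1C. With single-gene probe sets only, where fewer were tested, they were 2318, 588 and 1304. With the mean over a gene's probe sets they were 2291, 573 and 1293, and at adjusted p under 0.01 they were 2344, 296 and 1191. Omitting 1 array gave 2701 to 3961, 191 to 882 and 1078 to 3026. Family calls at 0.01 were 2 for SUB1A minus WT, 0 for SUB1C minus WT and 2 for SUB1A minus SUB1C, a trended prior gave 2 for SUB1C minus WT, and omission gave 2 to 5, 0 to 1 and 2 to 5. Hypoxia calls for SUB1A minus SUB1C were 2 with only the compared groups or array weights and 0 at 0.01. With 1 array omitted they were 0 to 2, 1 to 4 for SUB1A minus WT and 0 to 0 for SUB1C minus WT.

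Neighbours of AT2G47710 called for SUB1C minus WT were 1 with a replicate block, only the compared groups, median centring or a trended prior, and 0 at 0.01. For SUB1A minus WT there were 0 at 0.01, and for SUB1A minus SUB1C 2 with only the compared groups or a trended prior and 3 with array weights. Omission gave 0 to 1, 0 to 1 and 1 to 2. Neighbours of AT3G03270 called for SUB1A minus SUB1C were 1 with median centring or a trended prior and 2 with array weights. The replicate block moved no other list count or total by over 1.5 times. Of 323 repeats of 19 gene calls, 257 passed, 66 did not and 0 changed sign. Some of these repeats were the same fit, so they do not count as separate checks. The cause of the losses was not tested. By Spearman's rho, 0 of the 5 genes most similar to AT2G47710 and 3 of 5 for AT3G03270 were the same as by Pearson's r.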
